A study of Mus musculus with 2 samples.

Results

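The insulin-like growth factor (IGF) system was examined in primary osteoblasts lacking Slc39a13, a zinc transporter of the ZIP family. It was represented by 10 genes: the ligands Igf1 and Igf2, the receptors Igf1r and Igf2r, and the binding proteins Igfbp2, Igfbp3, Igfbp4, Igfbp5, Igfbp6 and Igfbp7. They were chosen by gene family, with earlier results of these data known. Igfbp1, of the same family, was not among them and was read in a second list below. Every probe set assigned to exactly 1 of the 10 genes was taken. This gave 28 probe sets of the 34945 with 1 gene symbol, or 10 of 18193 genes. Probe sets combine many short oligonucleotides, and those with a suffix in their name can read several transcripts. The Slc39a13-KO mice carried a targeted replacement of several exons of Slc39a13 by a Neo cassette, and the wild-type mice did not. Osteoblasts of newborn calvaria (skull vault) were released by collagenase and dispase and grown in medium with serum. RNA of each genotype was read on 1 Affymetrix mouse array, so no difference below has a replicate check, no p-value was computed, and the sources used here do not give the sex or number of the pups behind each culture.

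IGFs are secreted peptides that promote growth, survival and matrix formation, and bone cells both make them and respond to them. Igf1r is the tyrosine kinase that carries the signal of both ligands. Igf2r, which also carries mannose 6-phosphate proteins to lysosomes, takes up Igf2 for degradation. The binding proteins hold IGFs in serum, matrix and pericellular space, and proteases that cut them set the ligands free.

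Values are MAS5 signals on a linear scale. A signal below a floor of 85.1, the median of all signals, was raised to it before log2 was taken, and a gene was measured if at least 1 of its probe sets passed the floor in at least 1 array. A gene was called at a mean difference of 2-fold or more with all its measured probe sets of the same sign. All 10 genes were measured, by 26 of the 28 probe sets. Of them 1 was called higher in the Slc39a13-KO array, beside 8.01% of 12269 measured genes, and 5 were called lower, beside 5.93%. The largest differences were those of Igfbp6 (20.9-fold lower), Igfbp5 (at least 19.3-fold higher), Igfbp7 (8.20-fold lower) and Igf2 (5.37-fold lower). Igf1, Igf1r, Igfbp2 and Igfbp4 were not called.

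The arrays themselves were as follows. Slc39a13, read by 1 probe set, had a signal of 90.4 in the Slc39a13-KO array and 1309 in the wild-type array. The ratio of 3′ over 5′ signal, a sign of RNA integrity, was 0.752 and 0.796 for Gapdh and 1.26 and 1.30 for Actb, the Slc39a13-KO array first in each pair. The median log2 ratio of all measured genes was 0.11. The 24 poly-A control probe sets, bacterial RNAs normally added before labelling, had a median log2 ratio of -1.02, and when the arrays were scaled on them the median of all genes was 0.94 and 96.3% of called genes were higher, in place of 57.5%. That share was 38.3%, 47.5% and 46.2% with median, quantile and loess scaling. Directions are therefore relative to the bulk of genes. The sources used here do not give the amount of control RNA added.

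Among markers of the labelled cell type, Col1a1, Col1a2 and Sparc were bright in both arrays, whereas Ibsp and Phex lay below the floor in both, and Alpl and Dmp1 lay at the floor in the wild-type array. The counts of called markers that follow stand beside 8.01% of all measured genes called higher and 5.93% called lower. Summed signals take every listed gene that had a probe set of 1 gene, measured or not, as the mean unfloored signal of its probe sets. Of 7 measured osteoblast markers 3 (Alpl, Dmp1 and Pth1r) were called higher in Slc39a13-KO and 0 lower, with a median log2 ratio of 0.70. Of 17 measured chondrocyte markers 16 were called higher and 0 lower, with a summed signal of 158494 in Slc39a13-KO and 8453 in wild-type, where all measured probe sets of 10 of them, Acan, Matn1 and Cnmd included, were at the floor. Of 15 measured markers of smooth muscle and pericytes 1 was higher and 9 lower, with a summed signal of 52159 in Slc39a13-KO, where Myh11 and Mcam were at the floor, and 99146 in wild-type. Macrophage and osteoclast markers had 7 of 15 called higher and 1 lower, and 10 of the 15 were at the floor in wild-type. Their summed signal was 7696 in Slc39a13-KO and 5418 in wild-type. The brightest in Slc39a13-KO were Ctsk (2956, and 4227 in wild-type, not called) and Lyz2 (2146, and 255 in wild-type, called higher). Adipocyte markers had 3 of 5 higher and 0 lower, and 2 of the 5 were at the floor in wild-type. Their summed signal was 2859 in Slc39a13-KO and 888 in wild-type. Chondrocytes and perivascular cells also make IGF system proteins. The part of such cells in the IGF values was not tested, and in RNA of whole cultures fewer cells of a type cannot be told apart from less RNA per cell.

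The upstream sequences of the 3 genes with the largest differences are shown because each of these genes lies at one end of the distribution. The windows hold 250 bases before the annotated start of transcription, from RefSeq (build GRCm38.p6), 5′ to 3′ on the gene's strand. Capitals mark matches on either strand. The letters TATAAA were searched as those of a TATA box, and TATTTAA as a variant of it. The letters GGGCGG were searched as those of the GC box that Sp1-type factors bind.
Igfbp5 (chr1:72874866-72875115, minus strand): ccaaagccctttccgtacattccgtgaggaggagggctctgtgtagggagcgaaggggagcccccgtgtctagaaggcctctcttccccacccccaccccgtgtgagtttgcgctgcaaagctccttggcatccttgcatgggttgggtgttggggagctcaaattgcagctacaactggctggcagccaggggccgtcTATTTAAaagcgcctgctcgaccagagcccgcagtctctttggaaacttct
Igfbp6 (chr15:102143936-102144185, plus strand): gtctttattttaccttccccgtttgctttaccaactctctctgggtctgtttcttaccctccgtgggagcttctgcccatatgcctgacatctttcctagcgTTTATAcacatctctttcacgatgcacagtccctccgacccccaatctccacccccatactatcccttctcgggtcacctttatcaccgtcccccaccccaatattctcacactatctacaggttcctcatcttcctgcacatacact
Igfbp7 (chr5:77408046-77408295, minus strand): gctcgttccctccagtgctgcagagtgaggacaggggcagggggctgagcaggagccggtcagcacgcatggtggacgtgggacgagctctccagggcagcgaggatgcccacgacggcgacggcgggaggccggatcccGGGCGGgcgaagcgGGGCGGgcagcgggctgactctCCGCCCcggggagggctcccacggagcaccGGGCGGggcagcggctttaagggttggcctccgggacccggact

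The 3 windows differed in composition. The Igfbp7 window was 74.0% G and C and held 4 matches to GGGCGG, letters found in 32.7% of 32851 windows of the same length. The Igfbp5 window (58.8% G and C) held 1 match to TATTTAA, which begins 51 bases before the start and whose letters occur in 4.18% of windows. The Igfbp6 window (49.6% G and C) held 1 match to TATAAA on the other strand, 148 bases before the start, letters found in 12.4% of windows. Igfbp4 held TATAAA 28 bases before its start. GGGCGG was found in 6 of the 14 windows of the 10 genes, of which Igf2 has 4 and Igfbp2 has 2. Matches to TGANTCA (AP-1 type letters, in 6.75% of all windows) lay in windows of Igf1 and Igfbp2, and matches to CAGACA (letters that Smads can bind, in 17.1% of all windows) in 2 of the Igf2 windows. A match is a description of letters and not of binding.

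Of the ligands, Igf2 differed more than Igf1. Igf2, a fetal growth factor expressed from the paternal allele in most mouse tissues, had a signal of 515 in the Slc39a13-KO array and 2768 in the wild-type array on its measured probe set, a log2 ratio of -2.43 and the 113th lowest of 12269. The second probe set of Igf2 stayed under the floor, with 19.6 in Slc39a13-KO and 48.9 in wild-type. With a floor at the 30th percentile both probe sets entered, and Igf2 was at least 2.74-fold lower (log2 ratio -1.46), and with no floor it was 3.66-fold lower (-1.87).

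Igf1, the ligand that mediates much of the action of growth hormone, was read by 4 probe sets. On the brightest the signal was 2380 in the Slc39a13-KO array and 3821 in the wild-type array. The others gave 1772 in Slc39a13-KO and 2376 in wild-type, 1017 and 1576, and 893 and 1476, in the same order of arrays. All 4 were lower in Slc39a13-KO by similar factors, with a mean of -0.62 on the log2 scale (SD 0.13 over the 4 probe sets), and Igf1 was 1.53-fold lower and not called. With scaling on the poly-A controls its log2 ratio was 0.41.

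**Figure D1:**
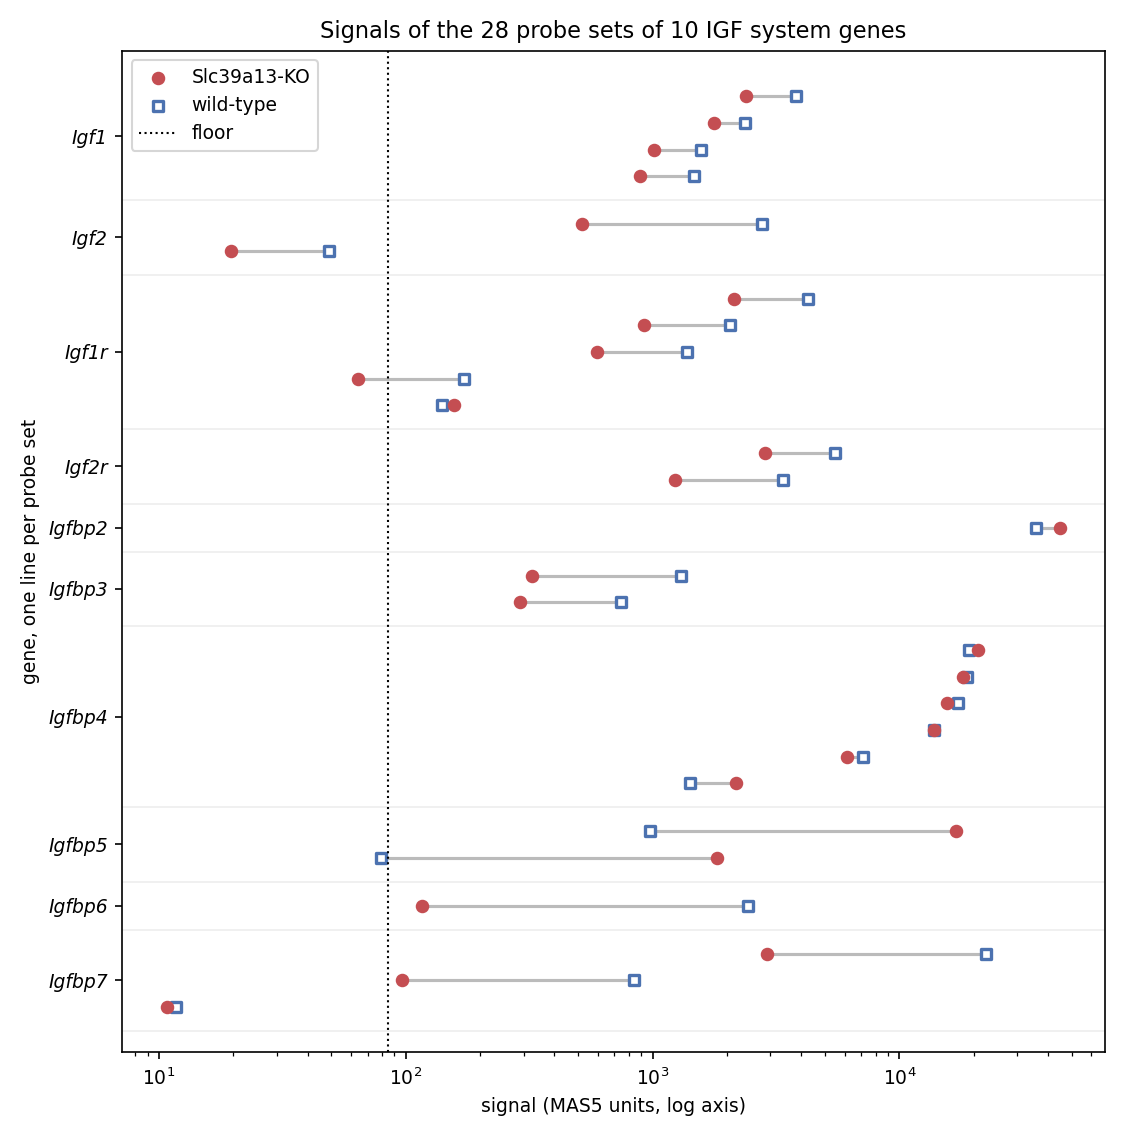
Signals of each of the 28 probe sets of the 10 genes (horizontal axis, MAS5 units, log axis) in the Slc39a13-KO array (red circles) and the wild-type array (open blue squares), with 1 line per probe set and a dotted line at the floor of 85.1. Igfbp5 is the gene whose Slc39a13-KO circles lie far to the right of the wild-type squares, Igf2, Igfbp3, Igfbp6 and Igfbp7 have the circles far to the left, and the 6 lines of Igfbp4 are short.

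Both receptors were on the lower side in the Slc39a13-KO array. With poly-A scaling the sign of Igf1r turned (log2 ratio 0.10), whereas Igf2r stayed lower (-0.18) but was then not called. Igf2r had signals of 2841 in Slc39a13-KO and 5469 in wild-type on one probe set, and 1230 in Slc39a13-KO and 3390 in wild-type on the other. The gene was 2.30-fold lower (log2 ratio -1.20, SD 0.37 between 2 probe sets) and was called, but its brighter probe set alone differed by 1.93-fold and would not be.

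Igf1r was read by 5 probe sets, which did not all go one way. The 3 brightest had 2144, 925 and 596 in the Slc39a13-KO array against 4276, 2064 and 1377 in the wild-type array, and were 1.99-fold, 2.23-fold and 2.31-fold lower. A 4th had 64.3 in Slc39a13-KO, below the floor, and 172 in wild-type, and was at least 2.02-fold lower. The 5th, a dim one, had 157 in Slc39a13-KO and 139.9 in wild-type, a log2 ratio of 0.17. Over all 5 the log2 ratio was -0.84 (SD 0.57), and Igf1r was not called because of the dim probe set. Without it, an alternative chosen after the values were seen, the gene was at least 2.13-fold lower and met the threshold. Igf1r was also called lower with median scaling and under a floor raised to the 70th percentile of signals.

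The binding proteins ranged from -4.38 for Igfbp6 to 4.27 for Igfbp5 on the log2 scale. Of the 6, 1 was called higher, beside 8.01% of all measured genes, 3 lower, beside 5.93%, and 2 were not called. Igfbp5, which binds bone mineral and extracellular matrix and is a main IGF binding protein of bone, was the gene called higher. Its brighter probe set had a signal of 16992 in the Slc39a13-KO array and 978 in the wild-type array. The dimmer one had 1832 in Slc39a13-KO and 79.2 in wild-type, just below the floor, so the mean of at least 19.3-fold is a bound, which fell to at least 9.98-fold under a floor at the 70th percentile. Its log2 ratio, 4.27 in the mean with an SD of 0.22 over the pair of probe sets, was the 20th highest of 12269. Both Igfbp5 probe sets carry a suffix for shared or alternative transcripts, so with only unsuffixed probe sets Igfbp5 was not read and 0 of the 7 remaining genes were called higher.

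Igfbp2, the neighbour of Igfbp5 on chromosome 1 with no protein-coding gene between them, was close between the arrays. It is a binding protein abundant in fetal tissue. Its 1 probe set had 44767 in Slc39a13-KO and 35616 in wild-type, 1.26-fold higher and not called. These signals are near the top of the scale, with 12 probe sets above Igfbp2 in the Slc39a13-KO array, whose highest signal was 58093, and 28 in the wild-type array, whose highest was 44438. Whether such signals were saturated was not tested.

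Of the 10 genes Igfbp6 lay furthest down. This binding protein prefers Igf2 over Igf1. Its 1 probe set had 117 in the Slc39a13-KO array, not far above the floor, and 2437 in the wild-type array, a log2 ratio of -4.38 and the 10th lowest of 12269. The call held in all 9 alternatives of floor, scaling and probe sets that were run, with log2 ratios from -4.63 with median scaling to -2.93 under a floor raised to the 70th percentile, where the Slc39a13-KO signal was at the floor.

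Igfbp7, a relative with low affinity for IGFs that binds type IV collagen of vessel walls, was next. One probe set had 2914 in Slc39a13-KO and 22477 in wild-type. Another had 96.8 in Slc39a13-KO and 843 in wild-type, and the third lay far below the floor in both, at 10.8 in Slc39a13-KO and 11.7 in wild-type. The measured pair averaged -3.04 on the log2 scale, with an SD of 0.12, the 56th lowest of 12269 and 8.20-fold lower. It was 4.18-fold lower with no floor, where the dim probe set entered, and at least 4.51-fold lower under a floor at the 70th percentile. Markers of smooth muscle and pericytes, cells that lie around vessels, had a median log2 ratio of -1.03 on the same arrays. Of these 15 markers 9 were called lower, beside 5.93% of all measured genes, and 1 higher, beside 8.01%. Of the 10 endothelial markers neither array had Pecam1, Kdr, Tie1, Emcn or Vwf above the floor. Of the 5 measured 1 was called higher, beside 8.01% of all measured genes, and 2 lower, beside 5.93%. The summed signal of all 10 was 950 in Slc39a13-KO and 1277 in wild-type. The part of such cells in the Igfbp7 values was not tested.

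Igfbp3, the main IGF carrier of serum, had 326 in Slc39a13-KO and 1303 in wild-type on one probe set and 290.2 in Slc39a13-KO and 745 in wild-type on the other. The mean of the pair was -1.68 on the log2 scale (SD 0.45), or 3.20-fold lower. Its log2 ratio was -0.66 with poly-A scaling, and it was then not called.

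Igfbp4, which inhibits IGF action until the protease Pappa cuts it, was read by 6 probe sets and was close between the arrays. The 4 brightest ranged from 13746 to 20807 in Slc39a13-KO and from 13744 to 19049 in wild-type. Their log2 ratios lay between -0.14 and 0.13, whereas the dimmest had 2168 in Slc39a13-KO and 1412 in wild-type, a log2 ratio of 0.62. The mean was 0.06 (SD 0.30 between 6 probe sets), not called, with a sign that turned with median scaling (-0.19). All 6 carry suffixes for shared or alternative transcripts.

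**Figure D2:**
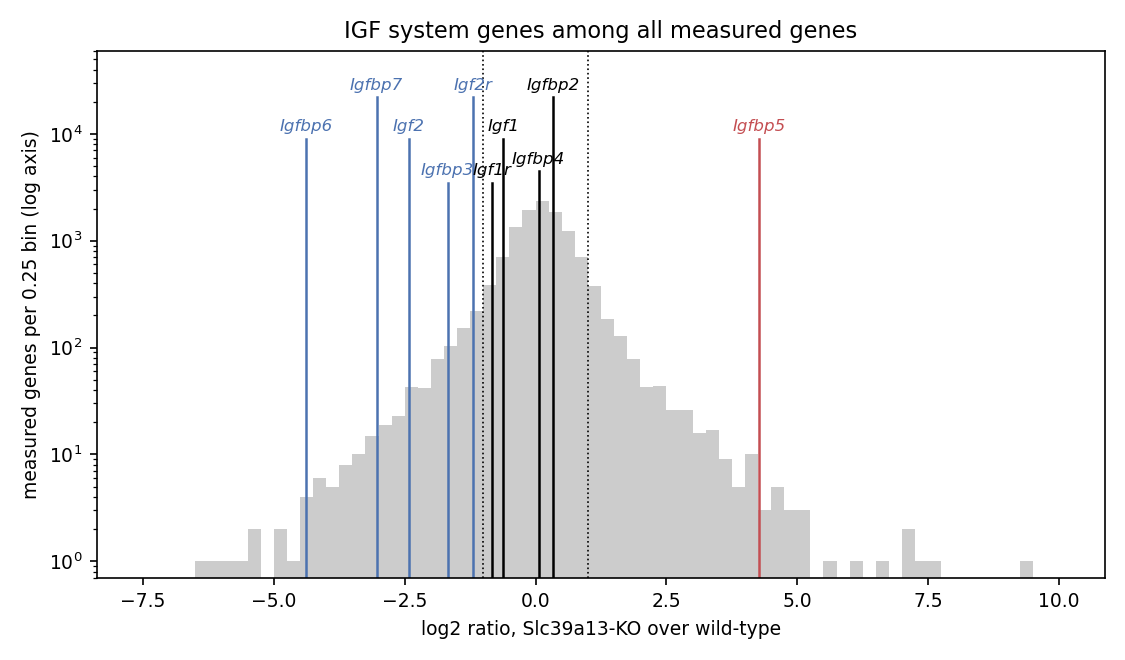
Number of measured genes (vertical, log axis) by log2 ratio of Slc39a13-KO over wild-type (horizontal, bins of 0.25) for all 12269 measured genes in grey, with lines for the 10 genes, red if called higher, blue if called lower, black if not called, and dotted lines at 2-fold. Igfbp6 at -4.38 and Igfbp5 at 4.27 stand near the ends of the distribution, and Igfbp4 at 0.06 near its peak.

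The only error available was the spread of a gene's probe sets within this 1 pair of arrays, which is technical and says nothing of the variation between cultures or animals. Over 5700 genes with at least 2 measured probe sets the median SD of their log2 ratios was 0.34, and 1 gene in 10 had an SD above 0.75. Among the 7 genes here with at least 2 it ran from 0.12 for Igfbp7 to 0.57 for Igf1r. Igf2, Igfbp2 and Igfbp6 rest on 1 measured probe set each, so their own error is not known. Of the 26 measured probe sets 19 were lower in Slc39a13-KO, 10 of them by 2-fold or more. The other 7 were higher, 2 of them, both of Igfbp5, by 2-fold or more. These are repeated readings of 10 genes, with 6 of Igfbp4, 5 of Igf1r and 4 of Igf1, and not independent observations. The same shares over all measured probe sets were not computed. The median log2 ratio of the 10 genes was -1.02, beside 0.11 for all measured genes, and with poly-A scaling -0.041 beside 0.94.

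**Figure D3:**
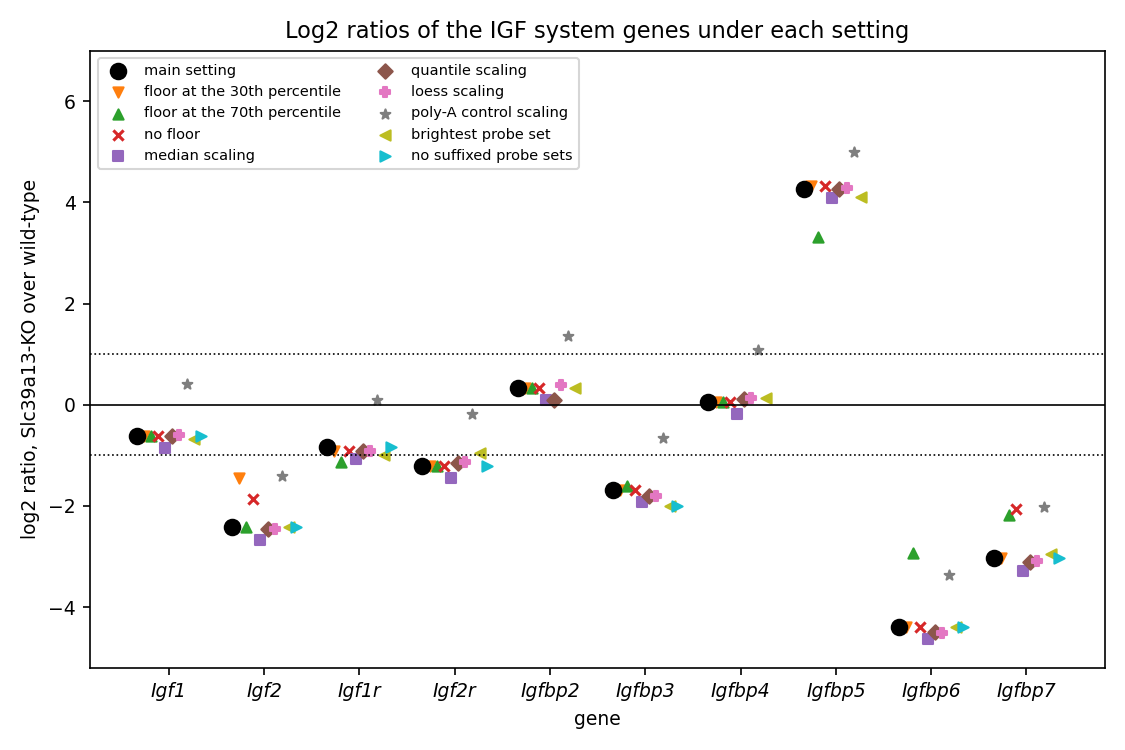
The log2 ratio (Slc39a13-KO over wild-type, vertical) of each of the 10 genes (horizontal) under the main setting (black circles) and 9 alternatives of floor, scaling and probe set choice (other symbols), with dotted lines at 2-fold. Igfbp5 stays at 3.32 or more and Igf2, Igfbp6 and Igfbp7 at -1.40 or less in every plotted setting that measured them, whereas Igf1 and Igf1r cross 0 with poly-A control scaling and Igfbp4 with median scaling.

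Genes that act around the IGFs were also read. A list of 49 was drawn up by role, of which 45 had a probe set of 1 gene and 40 were measured. Of these, 6 were called higher and 6 lower, beside 8.01% and 5.93% of all measured genes, and the median log2 ratio was 0.00, beside 0.11 for all measured genes. The roles hold few genes each, and differences between roles were not tested.

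Proteases of the binding proteins and inhibitors of these proteases had 4 of 7 called lower, beside 5.93% of all measured genes, and 0 called higher, beside 8.01%, with a median of -1.12. With poly-A scaling 0 genes of the whole list were called lower, as were only 1.75% of all genes. Htra1, a secreted serine protease that cuts Igfbp5 among other substrates, had 1667 in Slc39a13-KO and 5647 in wild-type, 3.39-fold lower. Adam12, a metalloprotease that cuts Igfbp3 and Igfbp5, had 232 in Slc39a13-KO and 692 in wild-type. The stanniocalcins Stc1 and Stc2, which inhibit Pappa, were 3.28-fold and at least 2.17-fold lower. Stc1 had 125 in Slc39a13-KO and 409 in wild-type on its measured probe set. Its second probe set stayed under the floor in both and went the other way, with 48.7 in Slc39a13-KO and 16.5 in wild-type. Pappa itself had 684 in Slc39a13-KO and 1165 in wild-type (log2 ratio -0.77), and Pappa2 had 928 in Slc39a13-KO and 886 in wild-type, and neither was called.

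Adapters that dock on the receptors had 3 of 7 called higher, beside 8.01% of all measured genes, and 0 lower, beside 5.93%, with a median of 0.91. Irs1, the main adapter of the IGF and insulin receptors in bone cells, had 16238 in Slc39a13-KO and 4207 in wild-type, 3.86-fold higher on 1 probe set. Grb10 and Grb14, adapters that dampen these receptors, were 2.68-fold and 2.21-fold higher. The 3 probe sets of Grb10 differed in size, with 848 in Slc39a13-KO and 155 in wild-type, 349.97 and 149, and 13716 and 9147, so that the brightest was the closest to equal. Irs2 had 181 in Slc39a13-KO and 132 in wild-type and was not called. Insr, the insulin receptor, had 549.6 in Slc39a13-KO and 356 in wild-type (log2 ratio 0.63), also not called.

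Of the PI3 kinase, Akt and mTOR genes, which relay the signal in the cell, 14 of 17 were not called, 2 were called higher and 1 lower, with a median of -0.01. These counts are near the shares of 8.01% and 5.93% of all measured genes. Pik3r1, a regulatory subunit of the kinase, was higher on all 4 of its probe sets, from 1.28 to 2.07 on the log2 scale, and at least 3.60-fold higher as a gene. Pik3r3, another regulatory subunit, had 479 in Slc39a13-KO and 1464 in wild-type, 3.06-fold lower on 1 probe set. The catalytic subunit Pik3cb had 172 in Slc39a13-KO and lay just below the floor in wild-type, at least 2.02-fold higher. The catalytic subunit Pik3ca had 390.4 in Slc39a13-KO and 393 in wild-type as a mean over 5 probe sets. These did not all go one way (log2 ratios from -0.51 to 0.83). Mtor had 390.3 in Slc39a13-KO and 365 in wild-type.

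On the growth hormone side, which drives Igf1 transcription in liver and other tissues, 1 of 5 genes was called higher, beside 8.01% of all measured genes. Stat5a, a transcription factor below the hormone receptor, was at least 3.43-fold higher, and its brighter probe set had 674 in Slc39a13-KO and 204 in wild-type. The receptor Ghr had 964 in Slc39a13-KO and 999 in wild-type as a mean over probe sets that did not all go one way (log2 ratios from -0.58 to 0.82).

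Igf2bp3, which binds Igf2 mRNA and is made mainly before birth, was lower on all 6 of its probe sets, by at least 2.92-fold in the mean, and its brightest had 268 in Slc39a13-KO and 922 in wild-type. Igf2bp1, of the same family, had 211 in Slc39a13-KO and 275 in wild-type and was not called. Igfals, the third partner of the serum complex of Igfbp3, had 116 in Slc39a13-KO and lay at the floor in wild-type, and Igfbp1, Igfbpl1, Insrr, Irs4 and Adam28 lay below the floor in both arrays.

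**Figure D4:**
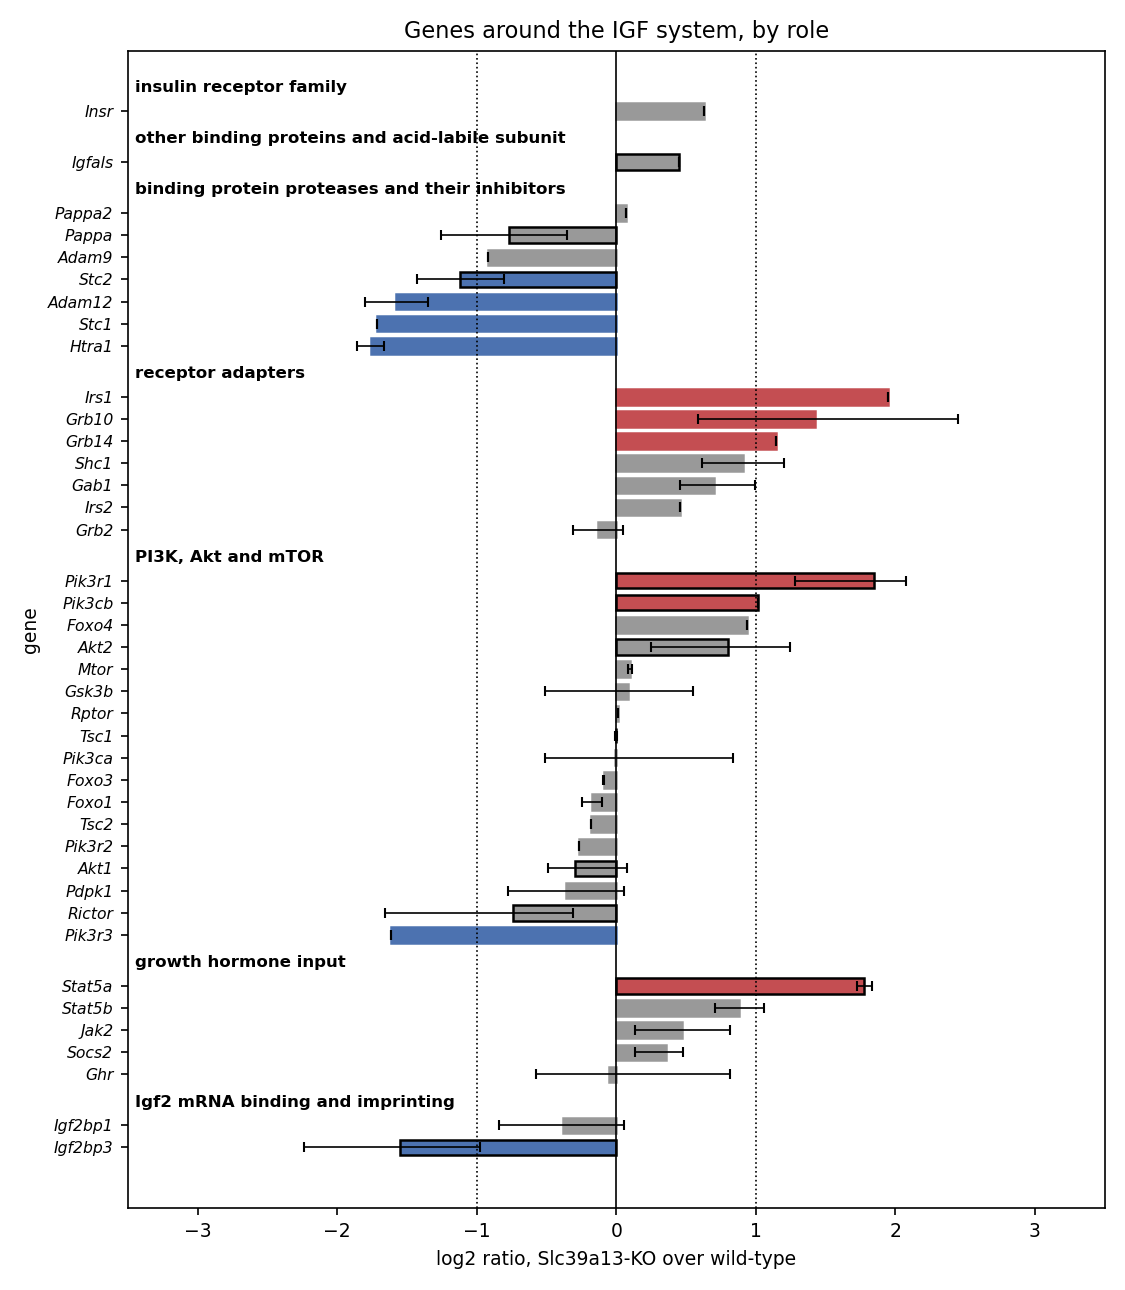
The log2 ratio (Slc39a13-KO over wild-type, horizontal) of the 40 measured genes around the IGF system, grouped by role (vertical), where a bar is the mean of a gene's probe sets, red if called higher, blue if called lower and grey if not called. Black ticks mark the lowest and the highest probe set of a gene, a black outline marks a ratio that is a bound at the floor, and dotted lines mark 2-fold; 4 of 7 proteases and inhibitors are blue and 3 of 7 receptor adapters are red.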

How the data were processed

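RNA of Slc39a13-KO and of wild-type osteoblasts was each hybridised to Affymetrix mouse genome expression arrays, 1 per genotype. The deposited values are linear signal intensities, computed by the authors with MAS5, as the submitters' processing notes name it, in a version that the sources used here do not give. The methods of the study name gcRMA for its own analysis, but the values are linear and both arrays have the same trimmed mean (500.003 after removal of 2% at each end), as MAS5 scaling gives. Such scaling hides a difference in total mRNA per cell.

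Signals were set to 1 common trimmed mean, control probe sets were left out of genes, and signals below the 50th percentile of all signals (85.1) were raised to that floor. Log2 of the Slc39a13-KO signal minus log2 of the wild-type signal was averaged over the measured probe sets of a gene. Where a signal was at the floor the ratio is a bound ("at least"). In the platform annotation 34945 probe sets carried 1 symbol, 932 carried more and 9160 carried none, and 34741 of the first (99.4%) matched RefSeq by gene identifier. RefSeq (GRCm38.p6) was used for names, gene order and upstream sequences, and protein sequences were not used here. With 1 array per genotype no test was possible, and the number of arrays limits the precision. Simulated data with known answers were used to test the calling step. Their noise was set by the median spread between probe sets of a gene and was the same at all signals. Known changes were placed only in genes with a mean signal well above the floor, so changes in dimmer genes were not tested. The simulated data hold no variation between cultures or animals and so cannot tell how far the calls would repeat. All 10 genes, the called genes of the IGF list, and others that a role required were named. The members and lists were chosen with earlier results of these data known. Analyses used Python 3.11.15, numpy 2.4.6, pandas 2.3.3 and statsmodels 0.14.6.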

Additional observations from a re-analysis of the deposited data

How the results depend on the processing

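The ratios and calls of the 10 genes, and the counts and median of the list around the IGF system, were recomputed with 3 other floors, 4 other scalings, 2 other choices of probe sets and 2 other fold thresholds. Counts by role, marker lists and neighbouring genes were not recomputed. Igf2, Igfbp6 and Igfbp7 kept their call under all 9 alternatives of floor, scaling and probe sets, and Igfbp5 under the 8 that measured it. With poly-A control scaling 3 of the 10 genes were called higher (Igfbp2, Igfbp4 and Igfbp5) and 3 lower, their median log2 ratio was -0.041, and of the list around the IGF system 20 genes were called higher and 0 lower, with a median of 0.99. Of all genes 45.8% were then called higher and 1.75% lower, with a median of 0.94. With only unsuffixed probe sets, 0 of the 7 genes left were called higher and their median was -2.00, since Igfbp2, Igfbp4 and Igfbp5 drop out. On the list around the IGF system, 12 genes were called higher and 9 lower at a 1.5-fold threshold (19.4% and 12.1% of all genes), and 3 were called higher and 3 lower at a 3-fold threshold (2.98% and 2.71% of all genes). At 1.5-fold Igf1 was also called lower, and at 3-fold Igf2r was not. No replicate could be left out, because each genotype has 1 array, and ratios of signals near the floor of 85.1 are the least precise.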

Other observations

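The genes next to the 10 IGF system genes in the genome were also read, as values with no explanation. On each side the nearest measured protein-coding gene was taken in the order of RefSeq (GRCm38.p6). Of 18 such genes that are not themselves members, 3 were called higher, beside 8.01% of all measured genes, 2 lower, beside 5.93%, and 13 were not called. Next to Igfbp6, Spryd3 had 611 in the Slc39a13-KO array and 611 in the wild-type array, and Csad, with 1 coding gene between, was 2.05-fold higher. Next to Igfbp7, Polr2b had 2446 in Slc39a13-KO and 2086 in wild-type. Next to Igf2, the mitochondrial ribosomal protein gene Mrpl23 had 2243 in Slc39a13-KO and 2898 in wild-type. The neighbours of Igfbp3 went both ways, with Adcy1 3.26-fold lower, whereas Tns3 was called higher with 1814 in Slc39a13-KO and 905 in wild-type. On the far side of Igfbp5 from Igfbp2, Tns1, which encodes a tensin, had 794 in Slc39a13-KO and 1998 in wild-type, 2.52-fold lower.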
